A study of Arabidopsis thaliana with 4 samples.

Results

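GATA23 (AT5G26930), PUCHI (AT5G18560), ACR4 (AT3G59420) and MAKR4 (AT2G39370), 4 genes of early lateral root formation, were looked up by locus identifier in the 4 deposited tables of genes increased in Arabidopsis thaliana leaf explants on callus inducing medium. Of these 4 genes, 3 were found with values in all 4 libraries, among 2773 listed genes. ACR4 was in none of the tables and has no value here. RNA was sequenced from leaf explants of Col-0 wild type and of plants labelled lbd16-2, a mutant of the LOB-domain transcription factor gene LBD16. The first pair of leaves was cut from 12-day-old plants. With the plant age, the records of all 4 groups give 22 °C and a cycle of 16 h light and 8 h dark. Explants were taken at day 0 or after 4 days on the medium in continuous dark at 22 °C. Each of the 4 groups (wild type day 0, wild type day 4, lbd16-2 day 0, lbd16-2 day 4) had 1 library, so no difference below has a replicate check and no test was possible. Each range in parentheses is a 95% interval for counting error alone, and it sets one library against another rather than genotype against genotype.

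Lateral roots begin in pericycle cells next to the xylem, where auxin releases ARF transcription factors from Aux/IAA repressors and founder cells are specified. GATA23 encodes a GATA zinc finger transcription factor of founder cell specification that acts below the repressor IAA28. LBD16 and its relatives act below ARF7 and ARF19 before the first asymmetric divisions. PUCHI encodes an AP2/ERF transcription factor that shapes the divisions of the young primordium, ACR4 a receptor-like kinase of formative divisions in the pericycle and root tip, and MAKR4 a membrane-associated kinase regulator needed to turn prebranch sites into primordia. Callus on auxin-rich medium forms through a programme that resembles a root primordium, also when the explant is a leaf.

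The deposited tables give no positions, so locations and sequences are those of the RefSeq annotation of TAIR10.1, whereas the submitters' processing notes name TAIR10. GATA23 lies at chr5:9479424-9480200 on the plus strand with 2 exons, PUCHI at chr5:6164526-6166040 on the minus strand with 1 exon, MAKR4 at chr2:16443996-16445408 on the minus strand with 1 exon and ACR4, which that annotation calls CR4, at chr3:21959646-21963180 on the minus strand with 1 exon. No other annotated gene overlapped any of the 4, and none of their neighbouring protein-coding genes on either side was listed. The 250 bases before the annotated start are shown for the 3 genes with values, since all 3 were higher at day 4 in both genotypes. Capitals mark the auxin response element letters TGTCTC or TGTCGG on either strand, searched together with the LBD-type letters GCGGCG. No other annotated gene overlapped these windows, which lie at chr5:9479174-9479423 (plus strand), chr5:6166041-6166290 (minus strand) and chr2:16445409-16445658 (minus strand) and are written 5′ to 3′ on the strand of the gene.
GATA23: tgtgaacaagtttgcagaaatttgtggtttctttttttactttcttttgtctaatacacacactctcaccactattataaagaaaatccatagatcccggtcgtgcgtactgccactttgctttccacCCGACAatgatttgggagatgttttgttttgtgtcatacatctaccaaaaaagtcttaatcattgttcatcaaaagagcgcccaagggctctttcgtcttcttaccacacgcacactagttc
PUCHI: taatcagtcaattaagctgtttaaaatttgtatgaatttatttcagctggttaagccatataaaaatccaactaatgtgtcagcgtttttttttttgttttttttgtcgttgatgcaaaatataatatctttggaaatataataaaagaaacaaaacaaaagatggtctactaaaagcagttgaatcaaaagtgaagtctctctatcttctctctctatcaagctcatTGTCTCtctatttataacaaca
MAKR4: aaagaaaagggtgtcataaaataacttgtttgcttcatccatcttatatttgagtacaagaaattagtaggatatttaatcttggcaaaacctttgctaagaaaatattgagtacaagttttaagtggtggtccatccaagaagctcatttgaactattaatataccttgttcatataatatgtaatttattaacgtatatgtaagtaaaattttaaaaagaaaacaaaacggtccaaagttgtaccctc

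The GATA23 window held TGTCGG once, on the strand opposite to the gene, 122 to 117 bases before the start. The PUCHI window held TGTCTC once, on the strand of the gene, 22 to 17 bases before the start. The MAKR4 window held none of the 3 motifs, and none of the windows held GCGGCG. The same search found TGTCTC in 10.9% of 27443 protein-coding promoters of this length and in 11.4% of the 1628 of them that belong to genes listed in both genotypes. TGTCGG was in 4.16% and 4.30% of them, and GCGGCG in 1.56% and 0.983%. The auxin response letters were therefore about as frequent before genes listed in both genotypes as before all genes, and a match marks letters, not a binding site. GC content was 39.2% before GATA23, 27.6% before PUCHI and 28.4% before MAKR4, against a median of 31.2%.

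Relative depths, given by the size factors recovered from the levels, ranged from 1.08 to 1.68 over the 4 libraries. The total depth is unknown, since unlisted genes carry no values. A normalised read is a read divided by its library's size factor. A gene entered a list when its deposited log2 level was more than 3 higher at day 4, an 8-fold difference, so genes that fell or changed less in both genotypes carry no value. Nearly all genes of the wild-type list also carry lbd16-2 levels, whatever their difference there. LBD16 itself had 981 normalised reads in the wild-type day 4 library and 518 in the one labelled lbd16-2, from 20.9 and 34.3 at day 0. Summed reads do not show whether its transcript is intact, so every direction given for lbd16-2 rests on the label.

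In wild type, the first comparison, 3 of the 4 genes were listed as increased by day 4, where 8.91% of the 24442 genes tested were listed. In lbd16-2 the same 3 genes were listed, against 9.18% of 24518. These 3 genes were all in the table of shared genes, which holds 6.78% of the genes tested in wild type, and none was in the table of the wild-type list alone. All 3 also exceeded a 16-fold limit in each genotype, as 5.81% of the genes tested did in wild type and 5.56% in lbd16-2. When the FDR of the authors' deposited table also had to be below 0.05, PUCHI and MAKR4 met both limits in wild type (1.03% of genes tested) and all 3 genes did in lbd16-2 (0.824%). The 4 genes were chosen with earlier results of these data known, so these shares are a description and no test of enrichment. The direction of a listed gene is fixed by the list, so the levels below are a description too. In RNA of whole explants, fewer cells of a type and less RNA per cell cannot be told apart.

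GATA23 was close to undetected in fresh leaves and was well detected after culture on the medium in both genotypes. Wild-type explants gave 0.698 normalised reads before culture, from 1 read, and 283 after 4 days, while lbd16-2 explants gave 0 and 425. Both day 0 libraries were at or under 3 reads, and the lbd16-2 day 4 library was the highest of the 4. The wild-type fold was 406 (72.4 to 16062), and the wide interval comes from the single day 0 read. The lbd16-2 day 0 library had no read. Against a floor of 3 reads there the day 4 level was at least 153-fold higher, and the lower limit of its 95% counting interval, which uses no such floor, was 124-fold. In the authors' deposited table GATA23 had an FDR of 0.133 in wild type and of 0.0298 in lbd16-2. This does not show that its folds differ between genotypes.

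PUCHI had the most even day 4 levels between genotypes of the 3 genes. Its level went from 0.698 to 1138 normalised reads in the wild-type libraries and from 0.928 to 1196 in the lbd16-2 libraries, with 1 read behind each day 0 value. The 2 day 4 libraries were nearly level, and both stood far above the day 0 libraries. Wild type gave a 1631-fold difference (292 to 64452), and lbd16-2 gave 1290-fold (231 to 50959). The difference of the log2 folds, lbd16-2 minus wild type, was -0.34 with an interval of -3.61 to 2.93. Such intervals excluded 0 for 29.8% of the 2175 genes with values in all 4 libraries, and PUCHI was not among them. The authors' deposited table gives PUCHI an FDR of 0.00164 in wild type and 0.00358 in lbd16-2.

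MAKR4 reached the highest level of the 3 genes. The wild-type libraries gave 2.79 normalised reads before culture and 2799 after it, and the lbd16-2 libraries gave 6.49 and 4660, from 4 and 7 reads at day 0. Day 4 was far above day 0 in each genotype, and the lbd16-2 day 4 library was the highest of the 4. Wild type gave a 1003-fold difference (391 to 3683) and lbd16-2 a 718-fold one (348 to 1786). The log2 folds differed by -0.41 (-2.10 to 1.27), lbd16-2 minus wild type, an interval that includes 0. In the authors' deposited table the FDR of MAKR4 was 0.00133 in wild type and 0.00654 in lbd16-2.

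**Figure D1:**
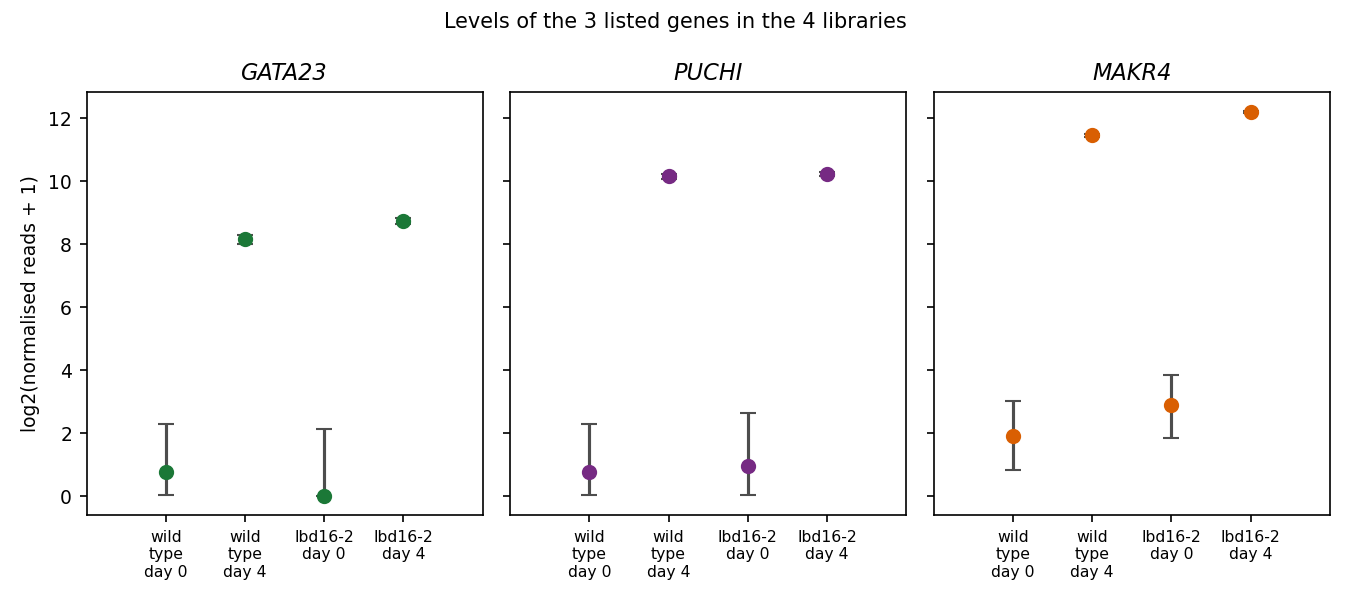
Levels of GATA23, PUCHI and MAKR4 on the log2(normalised reads + 1) scale in the 4 libraries, 1 point per library with a 95% Poisson counting interval. All day 0 points lie under 3 on this scale and all day 4 points above 8.

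Counted per length, the order of the 3 genes was the same in both day 4 libraries. In wild type MAKR4 had 1981 normalised reads per kilobase of annotated exon, PUCHI 751 and GATA23 422. In lbd16-2 the levels per kilobase were 3298 for MAKR4, 790 for PUCHI and 634 for GATA23. The level per kilobase of PUCHI was 1.78 times that of GATA23 in wild type and 1.24 times in lbd16-2, so these neighbours in the order stood closer together in lbd16-2. Exon lengths were 670 bases for GATA23, 1515 for PUCHI and 1413 for MAKR4 in the reference annotation, which may differ from the models the authors counted.

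By the size of the authors' deposited log2 fold, the 3 genes stood in the upper part of both lists. MAKR4 ranked 71 and PUCHI 80 of 2179 genes in wild type, with log2 folds of 9.53 and 9.39, and GATA23 ranked 269 with 7.39. In lbd16-2 MAKR4 ranked 56, PUCHI 57 and GATA23 93 of 2251 genes, with log2 folds of 9.28, 9.28 and 8.73. The medians of the whole lists were 4.56 in wild type and 4.46 in lbd16-2. These deposited folds are on the log2(normalised reads + 1) scale, so the rank of a gene with 0 or 1 read at day 0 depends on the 1 that is added. By day 4 level the ranks were 150 for MAKR4, 371 for PUCHI and 889 for GATA23 in wild type, and 94, 367 and 734 in lbd16-2.

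**Figure D2:**
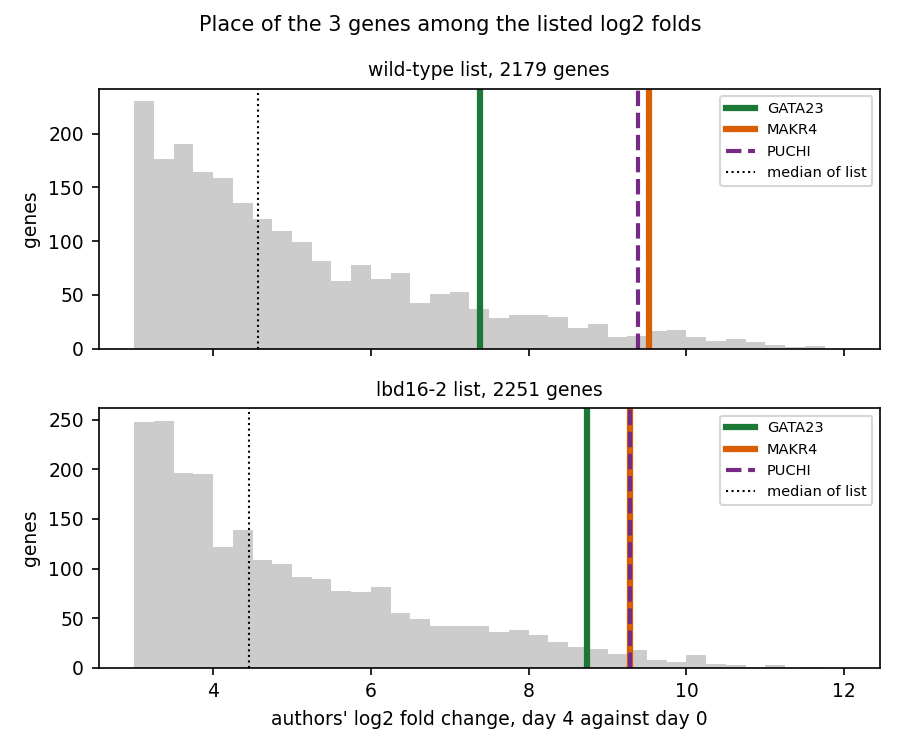
Histograms of the authors' log2 fold changes, day 4 against day 0, in the wild-type list of 2179 genes (top) and the lbd16-2 list of 2251 genes (bottom), with coloured lines for the 3 genes and a dotted line at each list's median. GATA23 lies at 7.39 in wild type and 8.73 in lbd16-2, and the PUCHI and MAKR4 lines coincide at 9.28 in lbd16-2.

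The second comparison set the day 4 levels of the genotypes side by side. GATA23 had 1.50 times (1.33 to 1.70) and MAKR4 1.66 times (1.60 to 1.73) the wild-type level in lbd16-2, while the PUCHI ratio of 1.05 had an interval of 0.984 to 1.12 that includes 1. LBD16 had a ratio of 0.528 (0.484 to 0.575) in the same libraries. Such counting intervals lay above 1 for 31.4% of the 2175 genes with values in all 4 libraries and below 1 for 43.0%, and the shares were 40.4% and 44.8% among the 1301 whose mean day 4 level was 100 normalised reads or more. The genes with 4 values all come from the wild-type list, and 1657 of them are also in the lbd16-2 list. Over those 1657, a background chosen after the data were seen, the intervals lay above 1 for 38.4% and below 1 for 38.1%. None of the 3 genes differed by more than 2-fold, as 11.3% of the 2175 did upward and 24.0% downward. Over all genes with 4 values, the middle 50% of the day 4 differences lay between -0.97 and 0.41 on the log2 scale. PUCHI at 0.07 lay inside that range, and GATA23 at 0.59 and MAKR4 at 0.74 lay just above it. That range takes in genes listed in wild type alone, and its median was -0.18. Over the 1657 genes listed in both, as the 3 genes are, the median was -0.01, and no such range was computed.

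**Figure D3:**
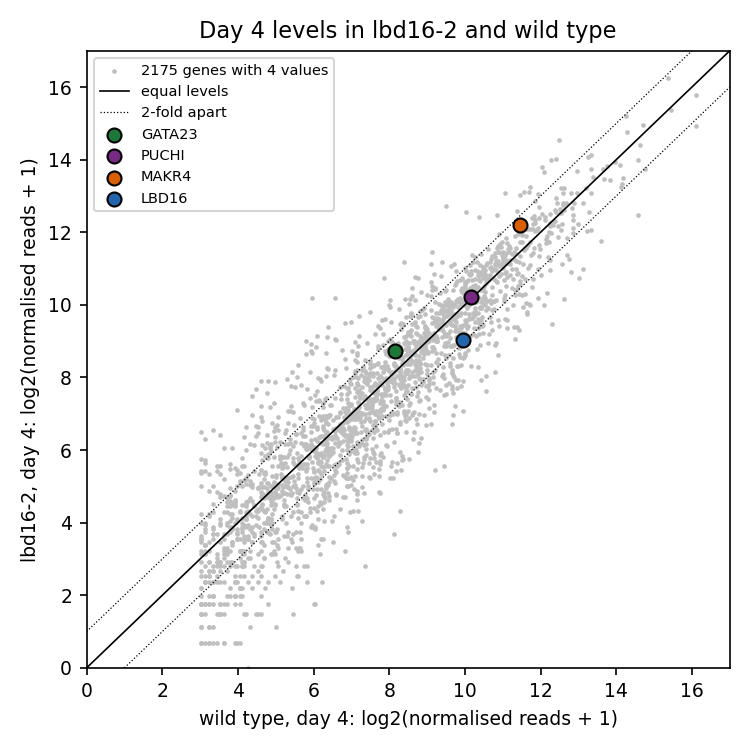
Day 4 levels on the log2(normalised reads + 1) scale in wild type (horizontal) and lbd16-2 (vertical) for the 2175 genes with 4 values in grey, with GATA23, PUCHI, MAKR4 and LBD16 in colour. The solid line marks equal levels and the dotted lines a 2-fold difference; PUCHI lies on the solid line, GATA23 and MAKR4 above it and LBD16 below it.

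Before culture the 3 genes gave little to compare. GATA23 and PUCHI were at 1 read or none in both genotypes, so no day 0 ratio is given for them. MAKR4 was 2.33 times as high in lbd16-2 as in wild type (0.591 to 10.8), an interval that includes 1, and the lbd16-2 day 0 library lay 0.47 above wild type on the log2 scale over 376 shared genes. Low day 0 reads were common: 46.3% of the 2175 genes had 3 reads or fewer in both genotypes at day 0. The authors' deposited ratio of the wild-type fold to the lbd16-2 fold was 1.08 for PUCHI, 1.19 for MAKR4 and 0.393 for GATA23. The GATA23 ratio compares 1 read with 0 at day 0.

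The genes whose 4 levels lay closest to each of the 3 came from varied families. Likeness was the Euclidean distance over the 4 log2(normalised reads + 1) levels, among 2174 other genes, which is a description of 4 libraries. Closest to GATA23 were AT5G66985, an uncharacterized protein gene at a distance of 0.0863, the tetratricopeptide repeat-like gene AT3G50030 at 0.443, the transcription factor genes WRKY75 at 0.459 and MYB2 at 0.479, and the methyltransferase gene AT4G01240 at 0.617. At day 4 AT5G66985 had 421 normalised reads in lbd16-2 beside 267 in wild type. All 5 genes shared the day 0 values of GATA23, which rest on 1 wild-type read and no lbd16-2 read. A first read at day 0 adds 0.764 to the wild-type level on this scale and 0.947 to the lbd16-2 level. Each step exceeds the distance of 0.617, so single day 0 reads weigh heavily on which genes are listed here. Closest to PUCHI were the peroxidase gene AT5G14130 at 0.711, FAR4, a fatty acyl reductase gene of suberin synthesis, at 0.831, the lipid-transfer type gene AT4G12490 at 0.833, the peroxidase gene AT4G08780 at 0.902 and the berberine-type oxidase gene AT1G30700 at 0.921. Closest to MAKR4 were the lipid-transfer type gene EARLI1 at 0.734, AT1G62770, which encodes a pectin methylesterase inhibitor type protein, at 0.786, AT5G52390 at 0.801, the glutathione transferase gene GSTU25 at 0.980 and the cysteine protease gene CEP1 at 1.06. GATA23 and PUCHI lay 2.67 apart, PUCHI and MAKR4 3.27 and GATA23 and MAKR4 5.71, while the median distance to all genes was 5.50 from GATA23, 6.56 from PUCHI and 7.41 from MAKR4.

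Other genes of the pathway were listed unevenly by role. Of 84 matched genes in 11 lists, 21 were in the wild-type list (25.0%) and 22 in the lbd16-2 list (26.2%), 19 of them in both. The lists of increased genes hold 8.91% and 9.18% of all genes tested. The pathway lists were chosen with earlier results of these data known, so these shares are a description and no test of enrichment. The list of auxin perception and response modules held 11 genes, which are auxin receptors, Aux/IAA repressors including IAA28, and ARFs. Of these, ARF5 was listed, in wild type alone, a share of 9.09% that is near the 8.91% of all genes tested. ARF5 had 493 and 5159 normalised reads before and after culture in wild type, beside 682 and 4674 in lbd16-2. None of the 4 genes that convert the auxin precursor indole-3-butyric acid, the pathway linked to MAKR4, was listed.

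Regulators that act beside PUCHI were mostly listed. Of 15 LBD, AP2 and WOX regulators and their partners, 10 were listed (66.7%), all in both genotypes. Of the genes tested in wild type, 6.78% were listed in both. This list too was chosen with earlier results of these data known. At day 4, 5 of the 10 were higher in lbd16-2 and 5 lower, LBD16 itself among the lower. Their median log2 difference was -0.03, against -0.01 over the 1657 genes listed in both. The 4 with the highest mean day 4 level were PLT3, WOX11, LBD18 and WOX5. PLT3, an AP2-type gene of primordium formation, had 5988 normalised reads in lbd16-2 against 9992 in wild type at day 4, 0.599 times (0.584 to 0.615). WOX11, which encodes a homeodomain factor for founder cells when leaf explants root, had 6037 against 1049, 5.76 times (5.45 to 6.08). LBD18, a relative of LBD16, had 972 against 1340, 0.725 times (0.678 to 0.775), and WOX5, a homeobox gene of the root stem cell niche, had 651 against 1071, 0.608 times (0.562 to 0.658). Of these 4, WOX11 lay on the same side as GATA23 and MAKR4, with a larger ratio, and the other 3 lay on the opposite side.

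Of 25 relatives of the 4 genes and partners of ACR4, 2 were in the wild-type list (8%) and 3 in the lbd16-2 list (12%). These shares are near the 8.91% and 9.18% of all genes tested. Of 9 other class B GATA genes HAN, a boundary and meristem regulator, was listed in wild type alone, going from 59.3 to 1000.5 normalised reads there and from 105 to 377 in lbd16-2. The HAN day 4 ratio was 0.377 (0.342 to 0.414), opposite in direction to that of GATA23. Of 3 PUCHI relatives, LEP, an ERF gene of leaf development, was in both lists, with day 4 levels of 103 in wild type against 71.9 in lbd16-2, and ESR1, an ERF gene of shoot regeneration, was in the lbd16-2 list alone with 104. Of 6 other MAKR and BKI genes MAKR6 was in the lbd16-2 list alone, going from 534 to 5327 normalised reads there. ESR1 and MAKR6 carry no wild-type level, so they cannot be compared between genotypes. Like ACR4, all 7 genes of its partners and relatives, among them its ligand candidate CLE40 and the receptor kinase gene CLV1, were in neither list.

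Genes that act after these regulators were counted in 3 groups. Of 12 genes of very-long-chain fatty acid elongation, a process that PUCHI regulates in callus, KCS2 was listed, in both genotypes, a share of 8.33% that is near that of all genes tested. Its day 4 level was 212 normalised reads in lbd16-2 against 316 in wild type. Of 10 symbols of peptide signals and their receptors 6 had a match, and the rest could not be looked up. Of the 6 matched genes 3 were listed in both (50%), where 6.78% of the genes tested in wild type were. All 3 were lower in lbd16-2 at day 4, with a median log2 difference of -0.87. RGF8 had 697 normalised reads there against 1426 in wild type, RGF5 had 246 against 449, and the abscission peptide gene IDA had 36.9 against 60.1. Of 5 matched cell wall genes around primordia EXPA14, EXPA17 and ADPG2 were listed in both and XTH23 in lbd16-2 alone. That is 60% in wild type and 80% in lbd16-2, where the lists hold 8.91% and 9.18% of all genes tested. Over the 3 shared genes the median log2 difference at day 4 was 0.12. At day 4 the expansin gene EXPA14 had 314 normalised reads in lbd16-2 against 773 in wild type, EXPA17 had 325 against 279, and the polygalacturonase gene ADPG2 had 6341 against 5821. Over the 21 pathway genes with 4 values the day 4 interval lay above 1 for 8 (38.1%) and below 1 for 13 (61.9%). The shares were 31.4% and 43.0% over all genes with 4 values, and 38.4% and 38.1% over those listed in both genotypes. The 21 genes had a median log2 difference of -0.52, against -0.18 over all genes with 4 values and -0.01 over those listed in both genotypes. LBD16 is 1 of the 21.

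**Figure D4:**
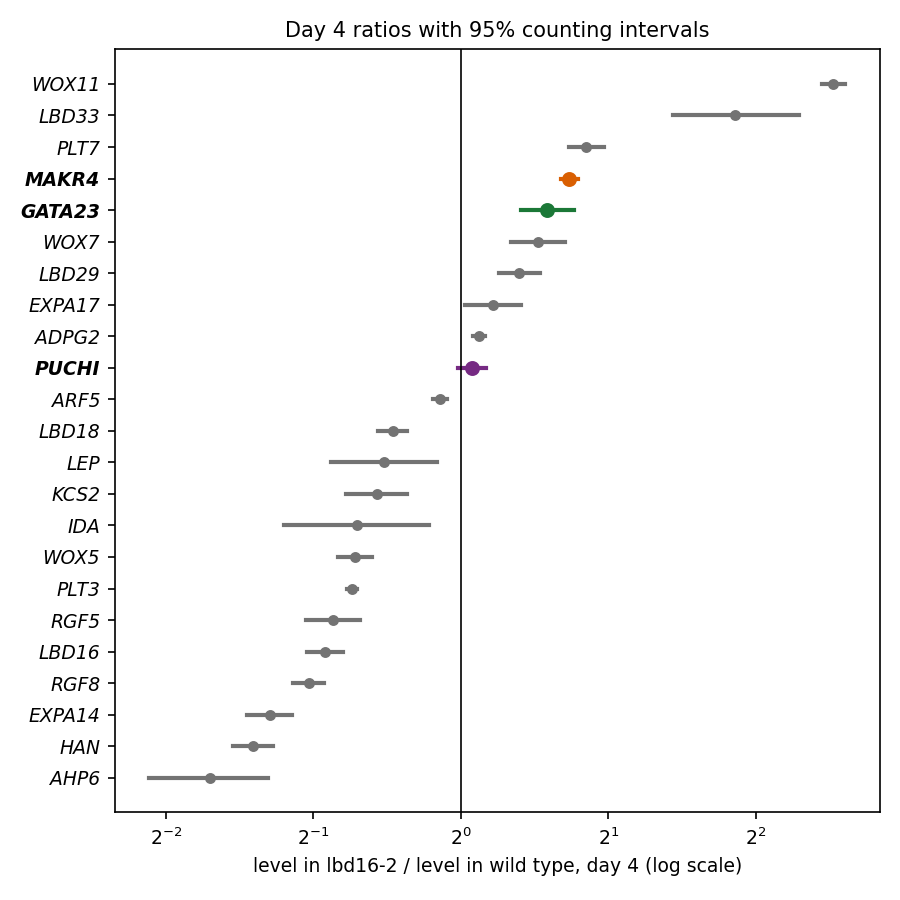
Ratio of the lbd16-2 to the wild-type level at day 4, on a log scale, for GATA23, PUCHI and MAKR4 (coloured, bold names) and 20 other pathway genes with 4 values (grey), with 95% exact binomial counting intervals. AHP6 is lowest at 0.307 and WOX11 highest at 5.76, and the PUCHI interval crosses 1.

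Marker genes of other tissues were read beside these values. None of 10 leaf and photosynthesis markers was listed, so the tables do not check the leaf label. All 6 root primordium markers were listed in both genotypes, where 6.78% of the genes tested in wild type were. LBD16, LBD29 and WOX5 among them were also counted with the regulators above. The summed level of the 6 went from 24.4 to 8238 normalised reads in the wild-type libraries and from 41.7 to 3175 in the lbd16-2 ones. WOX5 was at 0 in the wild-type day 0 library. The wild-type list held 4 of 4 root cap markers and the lbd16-2 list 3, and their summed level went from 1.40 to 1503 normalised reads and from 0.928 to 568. FEZ and BRN2 were at 0 at day 0 in both genotypes, SMB in lbd16-2 and BRN1 in wild type. At day 4 all 4 root cap markers and 5 of the 6 primordium markers, LBD16 itself among them, were lower in lbd16-2, and LBD29 was higher with 651 normalised reads against 495. Without LBD16 the primordium sum at day 4 was 2657 in lbd16-2 and 7257 in wild type. The listed LBD, AP2 and WOX regulators outside the marker list went both ways. WOX11, LBD33, PLT7 and WOX7 were higher in lbd16-2, with day 4 ratios of 5.76, 3.62, 1.80 and 1.44. PLT3, LBD18 and AHP6 were lower, with ratios of 0.599, 0.725 and 0.307. LBD33, PLT7, WOX7 and AHP6 were named after their values were seen. The part of cell composition in the levels of the 3 genes was not tested.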

How the data were processed

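Total RNA of leaf explants was sequenced in 4 libraries, 1 per group. STAR, Cufflinks and DESeq are named with TAIR10, per the submitters' processing notes; settings and use of strand are not stated there. The authors deposited levels and fold changes on a log2 scale, p-values, FDRs and a linear ratio of folds. How a p-value came from 1 library per group is not stated. Undoing the log2 and multiplying by 1 size factor per library gave whole reads, within 0.001, for 100% of levels, so the form log2(reads / size factor + 1) was inferred. The number of genes tested was recovered from FDR to p-value ratios, as the number giving whole ranks most often (53.1% and 54.4% of genes, next best 26.9% and 25.2%).

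Ratios have exact binomial intervals, and differences of log2 folds a normal interval with 0.5 reads added. A gene at 0 reads is given as a bound against 3 reads in that library. Intervals cover counting error only. Python 3.11.15, NumPy 2.4.6, pandas 2.3.3 and SciPy 1.17.1 were used. Day 4 reads were simulated with Poisson counting error alone (2175 genes, 200 of them 4-fold lower in lbd16-2). There the interval lay below 1 for 98% of the changed genes and excluded 1 for 5.11% of the others. The second share follows from how the interval is built and does not measure differences between libraries. Smaller changes, like those of GATA23 and MAKR4, were not simulated. The members and lists were chosen with earlier results of these data known. Named were the 4 genes, LBD16, the 5 genes nearest to each member, and listed pathway genes, with at most 4 of a list in full, those of highest mean day 4 level. Of 89 pathway symbols 5 had no match in RefSeq, and 1 matched gene that the counts include is not reported here by name. The 594 genes only in the lbd16-2 list carry no wild-type levels. Alternatives were a 16-fold limit, the authors' FDR, pseudocounts, centring on shared genes, thinned reads and a filter on low levels.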

Additional observations from a re-analysis of the deposited data

How the results depend on the processing

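Of 61 alternative values for 16 results, 51 stayed inside the counting interval or near the count, 10 moved and none reversed outside its interval. For the GATA23 fold in lbd16-2 the bound against 3 reads, a log2 of 7.26, stood in for the interval, with no upper limit. A value of 12.1 at a pseudocount of 0.1 thus counted as unmoved there. At a pseudocount of 5 the log2 fold was 5.66 for GATA23, 7.65 for PUCHI and 8.49 for MAKR4 in wild type, and 6.43 for GATA23 and 7.66 for PUCHI in lbd16-2, smaller because 5 exceeds the day 0 levels of GATA23 and PUCHI and of MAKR4 in wild type. Relative to the median fold of the shared genes it was 3.61, 5.62 and 4.92 in wild type for GATA23, PUCHI and MAKR4, and 5.37 and 4.52 in lbd16-2 for PUCHI and MAKR4, since that median is subtracted. The difference of log2 folds changed sign inside its interval, to 0.15 for PUCHI and 0.07 for MAKR4 when centred and to 0.01 and 0.17 at a pseudocount of 5, so it has no stable direction. The day 4 ratios kept their direction under every alternative run. These alternatives reuse the same day 4 libraries, and an equal pseudocount cannot change a direction, so this is no independent check. The PUCHI interval includes 1, so its direction is not settled. Requiring an FDR below 0.05 as well left 2 of the 3 genes in wild type and 3 in lbd16-2. Depth limits the day 0 values, with 7 reads or fewer for each gene. No library could be left out with 1 per group. No paired analysis was possible either, because each group had 1 library.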
